A study of Arabidopsis thaliana with 18 samples.

Results

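The nuclear genes for the photosystems and their light-harvesting antennae were followed in roots of 6 Arabidopsis thaliana genotypes. The set holds 48 genes, chosen by gene identifier as the LHCA and LHCB antenna genes, the PSA and PSB photosystem subunits, plastocyanin, PETC, ATPC1, ATPD and RCA, out of 25537 genes in the table. All 48 have a row in it, and 45 had at least 10 estimated counts summed over the 3 libraries of some genotype. By genotype these were 42 genes in atm-2 rab8d-2, 44 in sog1-1 rab8d-2, 35 in nac044-1 rab8d-2, 39 in nac085-1 rab8d-2, 39 in rab8d-2 and 41 in wild type (WT), and 35 genes reached 10 counts in every genotype. The filter on low counts left 40 of the 48 for testing.

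RNA was taken from roots of 4-day-old, untreated seedlings grown with 16 h of light and 8 h of dark on medium with 1% sucrose, selected with oligo(dT) and sequenced as 3 libraries per genotype. The 4 double mutants combine rab8d-2 with atm-2, sog1-1, nac044-1 or nac085-1, so that all of them carry the rab8d-2 mutation. The other 2 groups are rab8d-2 alone and the Columbia WT. RAB8D is the plastid translation elongation factor EF-Tu, ATM is a kinase activated by DNA breaks, SOG1 is the transcription factor it acts on, and NAC044 and NAC085 are related transcription factors under SOG1. No line with atm-2, sog1-1, nac044-1 or nac085-1 without rab8d-2 was analysed here.

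Libraries held 20103634 to 20471203 estimated counts. RAB8D RNA, listed as RABE1b, was 9.66 to 10.4 TPM (a length-scaled share of all transcripts) in the rab8d-2 libraries, against 75.3 to 79.3 TPM in WT. For rab8d-2, titles were followed where another label named the wild type. NAC044 RNA averaged 144.3 TPM in the libraries labelled nac044-1 rab8d-2, against 17.6 TPM in rab8d-2, so NAC044 RNA was not reduced there, and the label alone names that genotype. ATM RNA was lower in atm-2 rab8d-2 than in rab8d-2 (log2 ratio -3.28), and NAC085 averaged 1.31 TPM in nac085-1 rab8d-2, against 2.39 TPM in rab8d-2. SOG1 RNA gives no check of the sog1-1 label. Shoot markers that would mark leaf tissue were at or near 0: FIL (listed as AFO), YAB3, STM, SPCH, EPF1 and EPF2 each stayed at 0.08 TPM or less on average in rab8d-2 and in WT. The epidermal genes PDF1 and ATML1 of the same list were an exception and were higher in rab8d-2 than in WT, by 3.51 and 3.69 on the log2 scale. Summed over the 8 genes of the list in the table, the level was 15.4 to 23.9 TPM in the double mutants, against 49.7 to 51.0 TPM in rab8d-2 and 3.49 to 5.41 TPM in WT. The part of tissue composition in the results below was not tested.

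In chloroplasts, photosystem II takes electrons from water at its oxygen-evolving complex, the cytochrome b6f complex and plastocyanin pass them on to photosystem I, and the ATP synthase uses the proton gradient that builds up on the way. Chlorophyll-binding LHCB proteins collect light mainly for photosystem II and LHCA proteins for photosystem I. These nuclear genes are best known from leaves, where light, the circadian clock, GLK transcription factors and signals from the plastid set their transcript levels. Roots carry non-green plastids and express the same genes at low levels.

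The antenna and photosystem genes were expressed at a low level in WT roots and lower still in rab8d-2. Summed over all 48 genes they made up 165.5, 162.3 and 169.4 TPM in rab8d-2, against 549.0, 535.9 and 539.6 TPM in WT. The double mutants differed among themselves. The sum was 280.4, 273.5 and 276.8 TPM in atm-2 rab8d-2 and 371.0, 375.9 and 371.4 TPM in sog1-1 rab8d-2, all above every rab8d-2 library. It was 173.1, 172.1 and 170.3 TPM in nac044-1 rab8d-2, slightly above every rab8d-2 library, and 125.0, 128.2 and 130.1 TPM in nac085-1 rab8d-2, below every rab8d-2 library. No mutant library of any genotype reached the lowest WT library. Whole roots were sampled, so fewer cells that express these genes and less RNA per cell cannot be told apart.

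**Figure D1:**
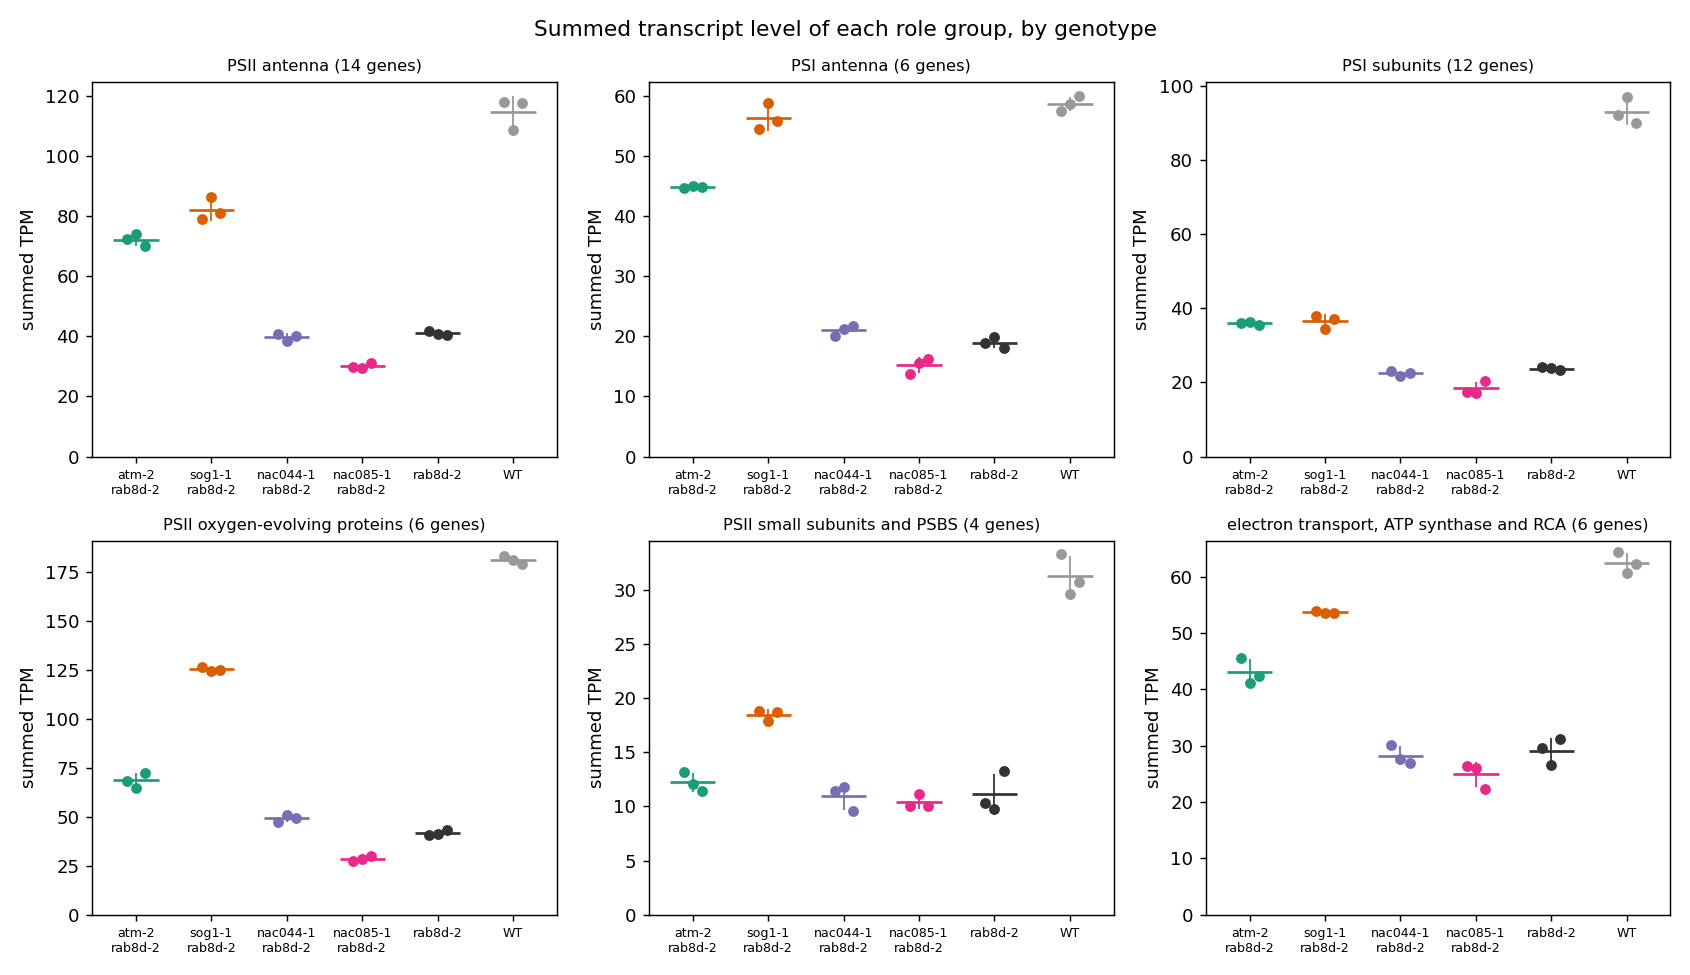
Summed transcript level (TPM, linear axis from 0) of each role group in every library. Points are the 3 libraries of a genotype, horizontal bars their mean and vertical bars the SD. PSI antenna genes in sog1-1 rab8d-2 (mean 56.45) come near WT (58.8), while PSI subunits stay at 36.6 against 93.1.

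Setting rab8d-2 beside WT shows how the levels of these genes differ in roots with a mutated gene for plastid EF-Tu. Of the 40 genes tested, 35 were lower in rab8d-2, none was higher and 5 did not pass the test, at a median log2 fold change of -1.80. Over all 19981 genes tested, 32.9% were called lower and 31.7% higher, with a median of 0.00. Genes count as called at an adjusted p under 0.05 in the quasi-likelihood test of edgeR, with Benjamini-Hochberg adjustment over all genes tested. Values after ± are standard errors of the log2 fold change, with 3 libraries per genotype. Lower calls covered every role group: 7 of 10 photosystem II antenna genes, 5 of 5 photosystem I antenna genes, 9 of 10 photosystem I subunits, 6 of 6 oxygen-evolving proteins, 4 of 4 small photosystem II subunits with PSBS, and 4 of 5 genes of electron transport, ATP synthase and RCA. None of these calls changed when a library was left out or under another setting, in any fit that tested the gene. No gene was higher at an unadjusted p under 0.05 or in DESeq2. PSBY and PSAE-1 passed the filter on low counts only through WT, with 41 and 67 counts over its 3 libraries. PSAH-1 and PSAL passed it only through WT and sog1-1 rab8d-2, with 32 and 39 counts for PSAH-1 and 34 and 49 for PSAL. The lower calls of these genes against WT are therefore given as a description.

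The antenna of photosystem II held both the deepest fall and most of the exceptions. LHB1B2 (AT2G34420) encodes an LHCB1 protein of the main trimeric antenna and had 2.69, 2.78 and 2.16 TPM in rab8d-2, against 48.1, 41.5 and 45.5 TPM in WT (log2 ratio -4.20 ± 0.11, adjusted p = 9.56e-34). Its groups were far apart, and at 18.4-fold lower it fell the most of the 40 genes. The minor antenna gene LHCB4.1 (AT5G01530) had 20.7, 19.8 and 19.9 TPM in rab8d-2, against 31.3, 29.1 and 30.8 TPM in WT, a smaller fall of log2 -0.65 ± 0.06 without overlap. LHCB6 (AT1G15820), another minor antenna gene, had 4.01, 5.96 and 5.81 TPM in rab8d-2, against 9.33, 9.57 and 10.9 TPM in WT (log2 ratio -0.97 ± 0.13, adjusted p = 5.08e-09). Also called lower were LHCB4.3 (-2.26 ± 0.21), LHCB3 (-1.74 ± 0.17), LHCB5 (-1.25 ± 0.14) and LHCB4.2 (-1.24 ± 0.13).

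For photosystem I the antenna and the core subunits both fell. LHCA4 (AT3G47470), the antenna gene with the highest level, had 12.03, 12.8 and 11.2 TPM in rab8d-2, against 34.5, 36.8 and 34.1 TPM in WT (log2 ratio -1.60 ± 0.07, adjusted p = 7.94e-25). LHCA3 (AT1G61520) had 1.02, 1.38 and 0.84 TPM in rab8d-2, against 8.92, 8.10 and 10.2 TPM in WT, and fell by more, with a log2 fold change of -3.16 ± 0.18. The WT libraries were all several times higher than any rab8d-2 library for LHCA3, and the other tested antenna genes were called lower too, LHCA1 with the smallest change of the group (-1.02 ± 0.17). Among the subunits, PSAK (AT1G30380), which binds at the antenna side of the complex, had 12.3, 12.5 and 10.4 TPM in rab8d-2, against 42.8, 43.0 and 36.4 TPM in WT (log2 ratio -1.86 ± 0.10, adjusted p = 1.18e-21). PSAF (AT1G31330), which helps plastocyanin to dock, had 1.38, 1.46 and 1.78 TPM in rab8d-2, against 9.68, 10.5 and 10.9 TPM in WT (log2 ratio -2.80 ± 0.15, adjusted p = 5.15e-21). PSAO (AT1G08380), a small membrane subunit, had 0.85, 1.46 and 0.59 TPM in rab8d-2, against 7.86, 8.97 and 9.08 TPM in WT (log2 ratio -3.20 ± 0.25, adjusted p = 7.86e-16) and was the subunit that fell the most. In none of these 3 did a rab8d-2 library reach the lowest WT library. PSAE-2 (AT2G20260), on the side where ferredoxin is reduced, had 2.30, 2.47 and 2.41 TPM in rab8d-2, against 13.2, 13.8 and 15.2 TPM in WT (log2 ratio -2.61 ± 0.23, adjusted p = 1.07e-13). PSAD-1 (-2.61 ± 0.28) fell too, as did PSAH-1 (-2.01 ± 0.53) and PSAL (-1.65 ± 0.47), which had 8 and 11 counts over the 3 rab8d-2 libraries.

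Genes of the oxygen-evolving complex had the highest summed level of all role groups in WT and fell to 23.0% of it in rab8d-2. PSBR (AT1G79040) encodes a lumenal-side subunit and was the most abundant of the 48 transcripts in WT, with 16.9, 17.4 and 17.1 TPM in rab8d-2, against 104, 106 and 104 TPM in WT (log2 ratio -2.67 ± 0.06, adjusted p = 5.71e-35). PSBO1 and PSBO2 both encode the manganese-stabilising protein. PSBO1 (AT5G66570) had 5.05, 4.56 and 6.19 TPM in rab8d-2, against 25.9, 25.2 and 24.0 TPM in WT (log2 ratio -2.30 ± 0.09, adjusted p = 1.28e-26). PSBO2 (AT3G50820) had 14.6, 14.6 and 15.0 TPM in rab8d-2, against 31.8, 30.1 and 31.1 TPM in WT (log2 ratio -1.13 ± 0.07, adjusted p = 1.61e-19). WT libraries were above all rab8d-2 libraries for both. PSBP-1 (-2.24 ± 0.12), PSBQA (-2.56 ± 0.30) and PSBQ-2 (-1.88 ± 0.23), genes of the smaller extrinsic proteins, fell as well.

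Small subunits and electron transport genes followed with more variation. PSBX (AT2G06520), a small membrane subunit of photosystem II, had 8.77, 8.26 and 11.5 TPM in rab8d-2, against 27.0, 22.5 and 25.4 TPM in WT (log2 ratio -1.46 ± 0.12, adjusted p = 1.29e-14). NPQ4 (AT1G44575) encodes PSBS, which triggers energy dissipation in excess light, and had 0.60, 0.54 and 0.46 TPM in rab8d-2, against 2.47, 3.30 and 2.46 TPM in WT (log2 ratio -2.40 ± 0.28, adjusted p = 1.94e-10). PSBW (-1.58 ± 0.31) and PSBY (-2.20 ± 0.49) were also lower, with no overlap between the groups, the PSBY call as a description only. RCA (AT2G39730), the activase that keeps Rubisco working, had 10.3, 8.92 and 9.12 TPM in rab8d-2, against 21.7, 21.0 and 23.0 TPM in WT (log2 ratio -1.27 ± 0.06, adjusted p = 2.6e-22). ATPC1 (AT4G04640), for the gamma subunit of the ATP synthase, had 4.63, 4.21 and 4.71 TPM in rab8d-2, against 18.1, 18.6 and 17.2 TPM in WT (log2 ratio -2.04 ± 0.10, adjusted p = 1.87e-23). Plastocyanin, here DRT112 (AT1G20340), was lower (-2.18 ± 0.17), and so was PETC, for the Rieske protein of cytochrome b6f (-0.57 ± 0.17).

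**Figure D2:**
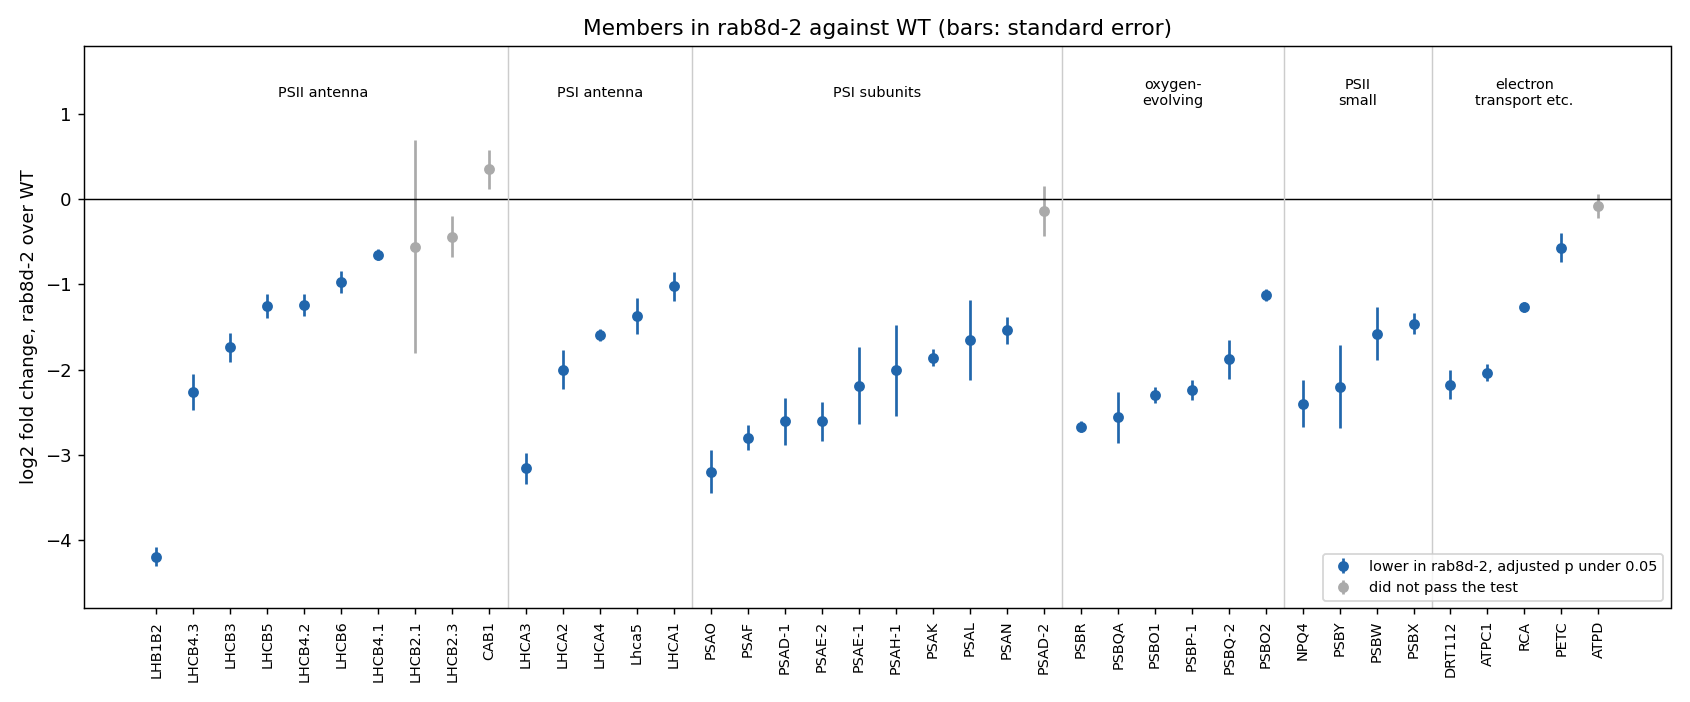
Log2 fold change of the 40 tested genes in rab8d-2 over WT, by role group, with standard errors as bars. The 35 genes called lower are blue and lie between -4.20 (LHB1B2) and -0.57 (PETC), and the 5 grey ones did not pass the test.

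The 5 genes that did not pass were CAB1, LHCB2.1, LHCB2.3, PSAD-2 and ATPD. ATPD (AT4G09650), for the delta subunit of the ATP synthase, had 7.49, 8.48 and 10.3 TPM in rab8d-2, against 11.0, 7.22 and 8.55 TPM in WT, and the groups overlapped (log2 ratio -0.08 ± 0.14, adjusted p = 0.619). Its partner ATPC1 in the same complex was called lower, as given above. PSAD-2 (AT1G03130) had 1.15, 1.34 and 2.17 TPM in rab8d-2, against 1.79, 1.63 and 1.53 TPM in WT, again with overlap (log2 ratio -0.14 ± 0.29, adjusted p = 0.675). CAB1 (AT1G29930), an LHCB1 gene, had 2.28, 1.89 and 1.79 TPM in rab8d-2, against 1.53, 1.62 and 1.35 TPM in WT. Its rab8d-2 libraries were the higher ones without overlap, yet the difference was not called (log2 ratio 0.35 ± 0.23, adjusted p = 0.177). LHCB2.3 (AT3G27690) had 1.87, 2.02 and 1.07 TPM in rab8d-2, against 2.35, 2.09 and 2.02 TPM in WT, with every rab8d-2 library below WT (log2 ratio -0.44 ± 0.24, adjusted p = 0.106). LHCB2.1 was near 0 in both, with 2 counts in rab8d-2, against 3 counts in WT.

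Comparing each double mutant with rab8d-2 asks whether the second mutation moves these levels. In atm-2 rab8d-2, 21 of 40 genes were higher than in rab8d-2, 4 were lower and 15 did not pass, at a median log2 fold change of 0.70; over all genes 31.7% were called higher and 29.9% lower. In sog1-1 rab8d-2, 32 were higher, 1 was lower and 7 did not pass, at a median of 1.01, beside 28.7% higher and 26.0% lower over all genes. The medians of all genes in these comparisons were 0.01 and -0.01. The 4 comparisons share the same rab8d-2 libraries. The 21 and 32 higher genes include LHCB2.1. It passed the filter on low counts only through atm-2 rab8d-2 and sog1-1 rab8d-2 and so had to be high there. Its calls are given as a description. The 32 also include PSAH-1 and PSAL, which passed the filter only through WT and sog1-1 rab8d-2, and their rises are likewise a description.

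Photosystem I antenna genes were higher in both, 5 of 5 in each, beside 31.7% of all genes in atm-2 rab8d-2 and 28.7% in sog1-1 rab8d-2. LHCA4 had 30.1, 29.7 and 30.9 TPM in atm-2 rab8d-2 and 34.3, 36.6 and 33.4 TPM in sog1-1 rab8d-2, against the 11.2 to 12.8 TPM of rab8d-2 (log2 fold changes 1.34 ± 0.07 and 1.61 ± 0.07). The sog1-1 rab8d-2 libraries overlapped WT for LHCA4 (log2 ratio 0.01 ± 0.06, adjusted p = 0.928). LHCA3 had 4.98, 4.42 and 5.38 TPM in atm-2 rab8d-2 and 5.10, 7.05 and 6.22 TPM in sog1-1 rab8d-2, which put both above rab8d-2 (2.17 ± 0.21 and 2.58 ± 0.20) and below WT (-0.99 ± 0.13 and -0.58 ± 0.13). LHCA1 rose by 0.78 ± 0.18 and 0.98 ± 0.18. Lhca5 (AT1G45474), a minor antenna gene, had 4.04, 5.04 and 3.14 TPM in atm-2 rab8d-2 and 7.99, 8.19 and 8.69 TPM in sog1-1 rab8d-2, against 2.53, 2.59 and 2.39 TPM in rab8d-2, so that every sog1-1 rab8d-2 library was above every rab8d-2 library. The atm-2 rab8d-2 call for Lhca5 (log2 ratio 0.70 ± 0.23, adjusted p = 0.00697) was lost without its replicate 2 (0.51, adjusted p = 0.0814). LHCA2 rose by 1.62 ± 0.24 in sog1-1 rab8d-2; in atm-2 rab8d-2 its value of 0.74 ± 0.28 (adjusted p = 0.0188) lost the call without replicate 1 of atm-2 rab8d-2 (0.47, adjusted p = 0.203) or replicate 1 or 3 of rab8d-2 (0.59 and 0.63, adjusted p = 0.0926 and 0.0779).

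Photosystem II antenna genes were split in atm-2 rab8d-2, with 4 higher and 3 lower of 10, near the 31.7% and 29.9% of all genes. In sog1-1 rab8d-2, 8 were higher and 1 lower, beside 28.7% and 26.0% of all genes. LHCB2.1 was among the higher ones in both double mutants. LHB1B2 was much higher in both, with 28.9, 27.6 and 25.9 TPM in atm-2 rab8d-2 and 22.5, 23.1 and 22.1 TPM in sog1-1 rab8d-2, against 2.16 to 2.78 TPM in rab8d-2 (3.44 ± 0.12 and 3.23 ± 0.13). It was below WT in both (-0.76 ± 0.07 and -0.97 ± 0.07). LHCB6 had 9.89, 12.5 and 9.96 TPM in atm-2 rab8d-2 and 8.76, 9.41 and 9.97 TPM in sog1-1 rab8d-2, above rab8d-2 (1.05 ± 0.12 and 0.91 ± 0.13) and overlapping WT in both. LHCB3 rose by 1.52 ± 0.17 and 1.87 ± 0.16, also to an overlap with WT. The gene LHCB4.1 went opposite ways: it had 16.8, 16.9 and 16.6 TPM in atm-2 rab8d-2, all below rab8d-2 (log2 ratio -0.25 ± 0.07, adjusted p = 0.000867), and 23.8, 25.6 and 25.5 TPM in sog1-1 rab8d-2, all above it (log2 ratio 0.39 ± 0.06, adjusted p = 4.55e-07). CAB1 did the same, with 1.08, 1.34 and 0.81 TPM in atm-2 rab8d-2 (log2 ratio -0.87 ± 0.25, adjusted p = 0.00201) and 3.13, 2.73 and 2.99 TPM in sog1-1 rab8d-2 (log2 ratio 0.65 ± 0.19, adjusted p = 0.00396), and these sog1-1 rab8d-2 libraries were also above WT (1.00 ± 0.21). LHCB2.3 had 0.43, 0.36 and 0.86 TPM in atm-2 rab8d-2, all below rab8d-2 (log2 ratio -1.55 ± 0.33, adjusted p = 7.48e-05). In sog1-1 rab8d-2 it had 0.65, 1.43 and 0.86 TPM and overlapped rab8d-2, and its lower call (log2 ratio -0.67 ± 0.29, adjusted p = 0.0475) was lost without replicate 1 or 2 of rab8d-2 or replicate 1 or 3 of sog1-1 rab8d-2 (-0.59 to -0.44, adjusted p from 0.131 to 0.24).

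LHCB2.1 (AT2G05100), a gene of the main trimeric antenna, had 14, 24 and 26 counts in the atm-2 rab8d-2 libraries and 29, 15 and 17 counts in the sog1-1 rab8d-2 libraries, against 0, 2 and 0 counts in rab8d-2 and 0, 2 and 1 counts in WT. Its neighbour LHCB2.2, not tested, had 15 counts over the sog1-1 rab8d-2 libraries, against 0 in rab8d-2, and atm-2 rab8d-2 had 1. The LHCB1 genes CAB1, CAB2 and CAB3 lie next to each other and have estimated counts with decimals in sog1-1 rab8d-2 libraries, where reads were split between copies, so their separate values are uncertain. CAB3, not tested, had 39 counts in sog1-1 rab8d-2, against 4 in rab8d-2 and 7 in WT.

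Photosystem I subunits were higher for 4 of 10 genes in atm-2 rab8d-2, near the 31.7% of all genes, and none was lower. In sog1-1 rab8d-2, 7 of 10 were higher and none lower, beside 28.7% higher over all genes. PSAF had 4.57, 3.45 and 3.39 TPM in atm-2 rab8d-2 and 6.42, 5.36 and 5.99 TPM in sog1-1 rab8d-2, above the 1.38 to 1.78 TPM of rab8d-2 (1.31 ± 0.19 and 2.02 ± 0.17). PSAO had 3.52, 2.89 and 3.41 TPM in atm-2 rab8d-2 and 5.44, 3.34 and 4.94 TPM in sog1-1 rab8d-2, again above every rab8d-2 library (1.75 ± 0.31 and 2.31 ± 0.28). PSAK was higher in atm-2 rab8d-2, with 16.8, 19.5 and 20.2 TPM there (log2 ratio 0.69 ± 0.12, adjusted p = 1.18e-06) and 10.3, 10.4 and 10.3 TPM in sog1-1 rab8d-2, where it overlapped rab8d-2 (log2 ratio -0.10 ± 0.13, adjusted p = 0.55); the difference between the 2 double mutants was itself called (log2 ratio -0.79 ± 0.12, adjusted p = 1.61e-07 for sog1-1 rab8d-2 over atm-2 rab8d-2). PSAE-2 was the opposite, with 3.52, 1.63 and 1.46 TPM in atm-2 rab8d-2 (log2 ratio -0.11 ± 0.36, adjusted p = 0.805) and 4.33, 4.40 and 4.95 TPM in sog1-1 rab8d-2 (log2 ratio 1.01 ± 0.30, adjusted p = 0.00434), and the difference between the double mutants was called as well (adjusted p = 0.00175). PSAL and PSAH-1 help the photosystem II antenna to dock on photosystem I. They rose in sog1-1 rab8d-2 by 2.19 ± 0.43 and 2.31 ± 0.50 at low counts, 49 and 39 over 3 libraries. Both passed the filter on low counts only through WT and sog1-1 rab8d-2, so their rises there are given as a description.

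In the oxygen-evolving group, 4 of 6 genes were higher and 1 lower in atm-2 rab8d-2, beside 31.7% and 29.9% of all genes. All 6 were higher in sog1-1 rab8d-2, beside 28.7% of all genes. PSBR had 40.1, 37.1 and 43.5 TPM in atm-2 rab8d-2 and 69.3, 64.9 and 66.9 TPM in sog1-1 rab8d-2, against 16.9 to 17.4 TPM in rab8d-2 (1.24 ± 0.08 and 2.05 ± 0.07). PSBO1 in atm-2 rab8d-2 had 10.5, 10.9 and 11.3 TPM, above rab8d-2 (log2 ratio 1.06 ± 0.11, adjusted p = 4.6e-12), while PSBO2 had 9.06, 8.91 and 9.60 TPM, below it (log2 ratio -0.67 ± 0.09, adjusted p = 6.67e-09). In sog1-1 rab8d-2 both rose, PSBO1 to 17.9, 21.3 and 19.8 TPM (1.97 ± 0.09) and PSBO2 to 25.4, 26.0 and 26.2 TPM (0.89 ± 0.07). PSBO1 made up 54.3% ± 0.662 of the summed PSBO TPM in atm-2 rab8d-2, 43.1% ± 1.81 in sog1-1 rab8d-2, 38.5% ± 0.503 in nac044-1 rab8d-2 and 42.7% ± 8.93 in nac085-1 rab8d-2, against 26.3% ± 2.75 in rab8d-2 and 44.7% ± 1.05 in WT (SD, n = 3 each). PSBP-1 rose by 0.84 ± 0.15 and 1.75 ± 0.13.

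Of the remaining genes, NPQ4 rose in both, with 1.21, 0.85 and 1.78 TPM in atm-2 rab8d-2 and 1.71, 2.02 and 2.27 TPM in sog1-1 rab8d-2 (1.27 ± 0.33 and 1.98 ± 0.30). PSBX had 10.8, 9.39 and 8.32 TPM in atm-2 rab8d-2 and overlapped rab8d-2 (log2 ratio 0.01 ± 0.15, adjusted p = 0.972), but had 14.2, 13.8 and 15.1 TPM in sog1-1 rab8d-2, above it (log2 ratio 0.68 ± 0.14, adjusted p = 4.3e-05). RCA had 12.6, 13.1 and 14.7 TPM in atm-2 rab8d-2 and 29.7, 28.7 and 29.0 TPM in sog1-1 rab8d-2 (0.52 ± 0.07 and 1.70 ± 0.06). All 3 sog1-1 rab8d-2 libraries exceeded all WT libraries for RCA (log2 ratio 0.44 ± 0.05, adjusted p = 5.2e-10). ATPC1 was above rab8d-2 in both, with 13.4, 12.1 and 12.2 TPM in atm-2 rab8d-2 and 7.70, 8.71 and 7.21 TPM in sog1-1 rab8d-2 (1.49 ± 0.10 and 0.88 ± 0.12). Plastocyanin DRT112 rose by 1.41 ± 0.19 in sog1-1 rab8d-2; its value of 0.60 ± 0.22 in atm-2 rab8d-2 (adjusted p = 0.0157) lost the call without replicate 2 of either genotype (0.55 and 0.44, adjusted p = 0.0542 and 0.106). PETC, PSAD-2 and ATPD did not pass the test in either double mutant. ATPD gained a higher call in atm-2 rab8d-2 with no filter (0.27, adjusted p = 0.0297). It did so too without replicate 3 of atm-2 rab8d-2 or of rab8d-2 (0.39 and 0.40, adjusted p = 0.0145 and 0.0216).

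**Figure D3:**
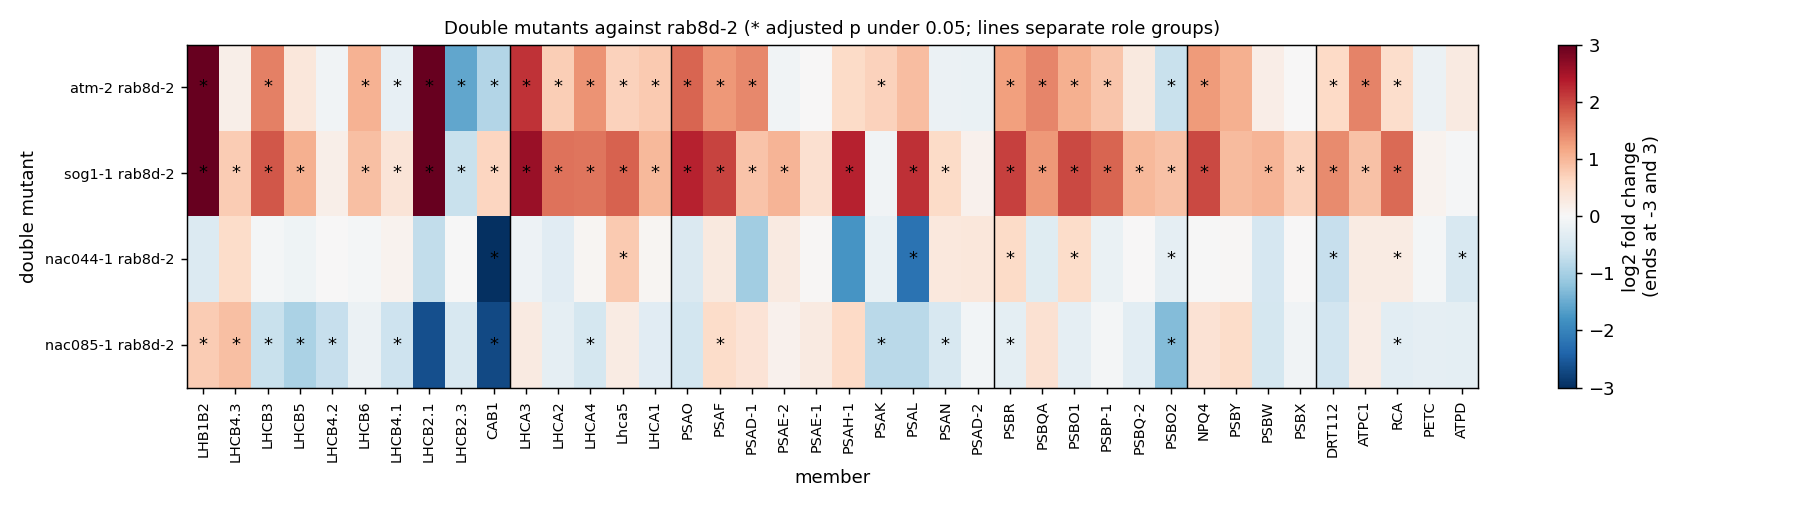
Log2 fold change of the 40 tested genes in each double mutant over rab8d-2, by role group. Red is higher, blue lower, the colour scale ends at -3 and 3, and stars mark an adjusted p under 0.05 in either direction. Starred as higher and lower were 21 and 4 genes in atm-2 rab8d-2 and 32 and 1 in sog1-1 rab8d-2. In nac044-1 rab8d-2 they were 4 and 5, and in nac085-1 rab8d-2 3 and 11. Over all genes, in the same order, 31.7%, 28.7%, 24.3% and 31.8% were higher and 29.9%, 26.0%, 18.6% and 31.7% lower.

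Set directly against each other, sog1-1 rab8d-2 was higher than atm-2 rab8d-2 for 26 of 40 genes and lower for 3, at a median log2 fold change of 0.66, beside 27.8% called higher and 30.0% lower over all genes. PSBO2 (1.56 ± 0.08), CAB1 (1.52 ± 0.22), RCA (1.18 ± 0.06) and Lhca5 (1.08 ± 0.17) were among the higher ones. The count of 26 fell to between 20 and 25 when a library of either genotype was left out. In DESeq2 the higher calls of LHCB2.3, LHCB3, LHCB4.3, PSAO, PSBQ-2, NPQ4 and PSBW were lost. The 3 lower genes were PSAK, ATPC1 (-0.61 ± 0.09) and LHB1B2 (-0.21 ± 0.08, adjusted p = 0.0136). The LHB1B2 call was lost without replicate 1 of atm-2 rab8d-2 (-0.17, adjusted p = 0.085), without replicate 3 of sog1-1 rab8d-2 (-0.19, adjusted p = 0.0532) and in DESeq2 (-0.20, adjusted p = 0.0789).

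Against WT, 1 gene was higher and 32 lower in atm-2 rab8d-2, with 35.1% higher and 33.5% lower over all genes. In sog1-1 rab8d-2, 4 were higher and 24 lower, with 28.8% higher and 29.2% lower over all genes. The gene above WT in atm-2 rab8d-2 was LHCB2.1, whose call the filter fixed, and the count of 1 became 2 without replicate 1 of WT or replicate 3 of atm-2 rab8d-2. Those above WT in sog1-1 rab8d-2 were CAB1, RCA, Lhca5 and, likewise fixed by the filter, LHCB2.1. The Lhca5 value (log2 ratio 0.42 ± 0.16, adjusted p = 0.0219) did not pass without replicate 1 or 2 of WT (0.35 and 0.37, adjusted p = 0.0888 and 0.0755), without replicate 3 of sog1-1 rab8d-2 (0.38, adjusted p = 0.0653) or in DESeq2 (0.42, adjusted p = 0.0825). Genes that were not called lower than WT are not thereby shown to equal it.

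**Figure D4:**
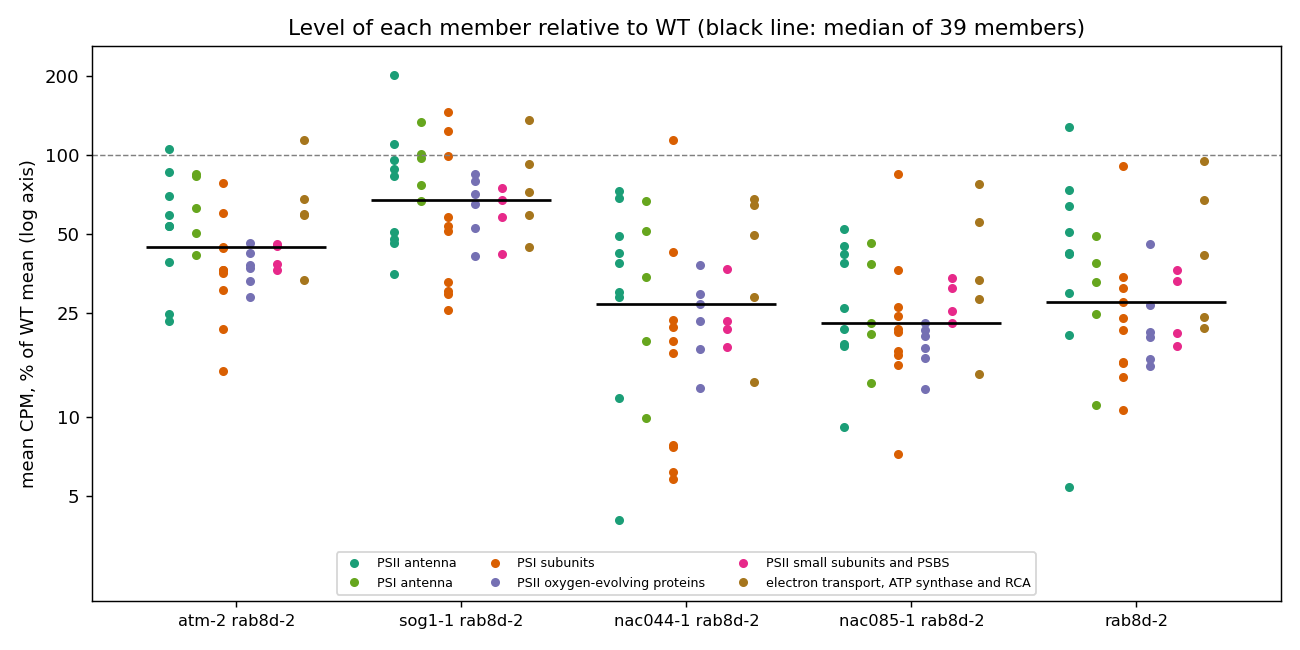
Mean library-scaled count (CPM) of each gene as a percentage of its WT mean, on a log axis, for 39 tested genes (LHCB2.1, near 0 in WT, is left out). Colours are role groups and black lines medians, which were 44.5% in atm-2 rab8d-2, 67.5% in sog1-1 rab8d-2, 27.0% in nac044-1 rab8d-2, 23.0% in nac085-1 rab8d-2 and 27.5% in rab8d-2; the dashed line is WT.

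The role groups differed in how close their summed level came to WT. In sog1-1 rab8d-2 the summed TPM reached 96.05% of WT for photosystem I antenna genes and 86.05% for electron transport, ATP synthase and RCA, but 39.3% for photosystem I subunits. Photosystem II antenna genes reached 71.6%, oxygen-evolving proteins 69.2% and the small subunits with PSBS 59.15%. In atm-2 rab8d-2 it reached 76.4% for photosystem I antenna, 69.0% for electron transport, 62.8% for photosystem II antenna, and 37.9% to 39.2% for the other 3 groups. The sums weigh abundant genes most. As medians over the tested genes of a group, sog1-1 rab8d-2 stood at 97.2% of WT for photosystem I antenna, 83.4% for photosystem II antenna, 72.3% for electron transport, 68.1% for oxygen-evolving proteins, 62.9% for small subunits with PSBS and 52.3% for photosystem I subunits. Electron transport and photosystem II antenna genes thus change places between the sums and the medians.

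In nac044-1 rab8d-2 few genes passed the test against rab8d-2. Of 40 tested, 4 were higher, 5 were lower and 31 did not pass, at a median of -0.04, beside 24.3% higher and 18.6% lower over all genes. The higher genes were PSBR with 24.9, 25.6 and 25.7 TPM (log2 ratio 0.57 ± 0.09, adjusted p = 4.06e-07), PSBO1 with 7.17, 8.37 and 7.42 TPM (log2 ratio 0.54 ± 0.12, adjusted p = 0.000155), Lhca5 (0.79 ± 0.22) and RCA (0.25 ± 0.07). PSBR and PSBO1 exceeded every rab8d-2 library. CAB1 was lower, with 5, 2 and 1 counts in nac044-1 rab8d-2, against 34, 28 and 27 counts in rab8d-2 (log2 ratio -3.37 ± 0.37, adjusted p = 1.77e-10). The other 4 lower calls were small or rested on few counts. PSBO2 (-0.26 ± 0.08) lost its call without replicate 1 of nac044-1 rab8d-2 (-0.20, adjusted p = 0.0836), and ATPD (-0.47 ± 0.15) without replicate 3 of rab8d-2 (-0.33, adjusted p = 0.117). DRT112 (-0.69 ± 0.27) and PSAL, with 2 counts in nac044-1 rab8d-2 against 11 in rab8d-2, lost theirs more often. DRT112 lost it without replicate 1 or 2 of nac044-1 rab8d-2 or replicate 1 or 3 of rab8d-2 (-0.66 to -0.54, adjusted p from 0.0844 to 0.171). PSAL lost it without replicate 1 or 3 of nac044-1 rab8d-2 or replicate 1 or 2 of rab8d-2 (-2.15 to -1.71, adjusted p from 0.0787 to 0.146). Genes that did not pass are not thereby shown to be alike, as for PSAH-1 (log2 ratio -1.78 ± 0.98, adjusted p = 0.143) with 2 counts in nac044-1 rab8d-2 against 8 in rab8d-2, and PSAD-1 (log2 ratio -1.05 ± 0.51, adjusted p = 0.0926) with 12 against 26. The count of 5 lower genes became 2 without replicate 1 of nac044-1 rab8d-2 and 3 without replicate 1 or replicate 3 of rab8d-2. Against WT, 37 of 40 genes were lower and none higher, nor at an unadjusted p under 0.05 or in DESeq2, at 28.8% lower and 29.3% higher over all genes.

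In nac085-1 rab8d-2 more genes were lower than higher relative to rab8d-2. Of 40 tested, 3 were higher, 11 lower and 26 not called, at a median of -0.28, beside 31.8% higher and 31.7% lower over all genes, so the share of lower calls, 27.5%, was near that of all genes. PSBO2 had 6.97, 5.80 and 4.84 TPM, all below rab8d-2 (log2 ratio -1.31 ± 0.10, adjusted p = 2.25e-16). LHCB4.1 had 13.7, 13.8 and 11.9 TPM, likewise below (log2 ratio -0.61 ± 0.07, adjusted p = 1.78e-10), and PSAK had 5.73, 6.93 and 7.33 TPM (log2 ratio -0.80 ± 0.15, adjusted p = 6.27e-06). LHCB5 (-0.95 ± 0.20), LHCB4.2 (-0.69 ± 0.18), LHCA4 (-0.52 ± 0.10) and RCA (-0.32 ± 0.08) fell too. CAB1 was again low, with 4, 4 and 5 counts (log2 ratio -2.71 ± 0.33, adjusted p = 1.07e-09). Among the higher genes, LHB1B2 had 3.76, 3.83 and 5.22 TPM, above every rab8d-2 library (log2 ratio 0.76 ± 0.19, adjusted p = 0.000529), and LHCB4.3 had 1.83, 1.61 and 1.63 TPM, against 0.98, 0.80 and 0.91 TPM in rab8d-2 (log2 ratio 0.90 ± 0.26, adjusted p = 0.00251). PSBR, with 13.1, 13.6 and 15.0 TPM (log2 ratio -0.29 ± 0.10, adjusted p = 0.0125), lost its lower call without replicate 1 of nac085-1 rab8d-2 (-0.25, adjusted p = 0.0598). LHCB3 (-0.67 ± 0.24) lost its lower call without replicate 2 of nac085-1 rab8d-2 (-0.59, adjusted p = 0.0572) or replicate 1 of rab8d-2 (-0.49, adjusted p = 0.124). PSAN (-0.49 ± 0.21) lost it without any replicate of nac085-1 rab8d-2 or without replicate 1 or 3 of rab8d-2 (-0.54 to -0.41, adjusted p from 0.054 to 0.139), and the higher call of PSAF (0.56 ± 0.22) was lost without replicate 2 of nac085-1 rab8d-2 (0.47, adjusted p = 0.0981) or replicate 1 or 2 of rab8d-2 (0.48 and 0.52, adjusted p = 0.0837 and 0.0656). Against WT, 38 of 40 genes were lower and none higher, nor at an unadjusted p under 0.05 or in DESeq2, at 32.4% lower and 32.5% higher over all genes.

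Between the 2, nac085-1 rab8d-2 was lower than nac044-1 rab8d-2 for 12 of 40 genes and higher for 3, at a median of -0.12, beside 29.2% lower and 29.3% higher over all genes. The share of lower calls, 30%, was thus near that of all genes. PSBO2 (-1.06 ± 0.10), PSBR (-0.87 ± 0.09), PSBO1 (-0.81 ± 0.12) and LHCB4.1 (-0.72 ± 0.07) were lower in nac085-1 rab8d-2. LHB1B2 was higher there by 1.17 ± 0.20, without overlap. The other higher genes had few counts, PSAD-1 (1.46) with 34 against 12 and PSAH-1 (2.37) with 12 against 2. PSAD-1 lost its call without replicate 3 of nac085-1 rab8d-2 (1.20, adjusted p = 0.0589). PSAH-1 lost it without replicate 1 or 3 of nac044-1 rab8d-2, without replicate 1 of nac085-1 rab8d-2 and in DESeq2 (adjusted p from 0.0548 to 0.104).

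**Figure D5:**
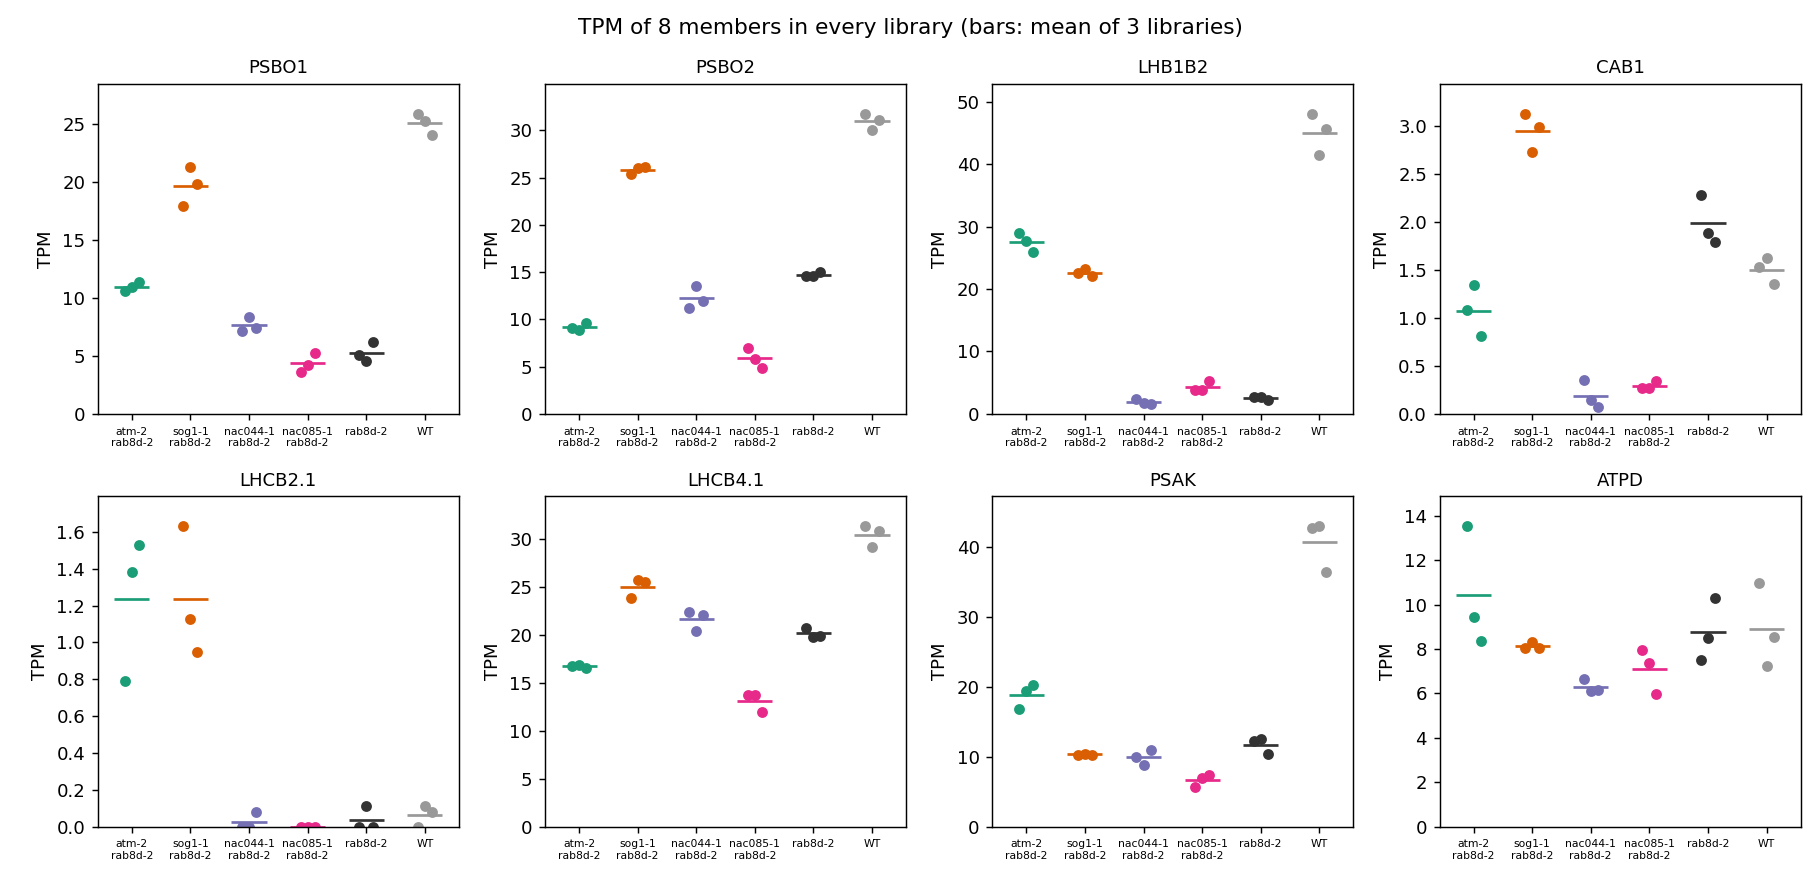
TPM of 8 genes in every library (points) with the mean of 3 libraries (bars), on linear axes from 0. PSBO1 is above and PSBO2 below rab8d-2 in atm-2 rab8d-2 (means 10.9 and 9.19, against 5.27 and 14.7 in rab8d-2), CAB1 is lowest with nac044-1 or nac085-1, LHCB2.1 is seen in atm-2 rab8d-2 and sog1-1 rab8d-2, and ATPD overlaps between rab8d-2 and WT.

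The 8 genes that were not tested were LHB1B1, CAB2, CAB3, LHCB2.2, Lhca6, PSAG, PSAH2 and PETE1. LHB1B1, next to LHB1B2 and like it an LHCB1 gene, had 1 count in all 18 libraries, and Lhca6 also had 1. PSAG, a photosystem I subunit, had 3 to 13 counts per genotype, and the second plastocyanin gene PETE1 had 14 counts in rab8d-2, against 21 in WT. Members of the same family differed widely in level in these roots. Of the LHCB1 genes, LHB1B2 averaged 45.05 TPM in WT, while no WT library exceeded 1.62 TPM for CAB1. When no filter was applied, so that all 48 were tested, 35 were lower in rab8d-2 than in WT and none higher. Over all genes 26.7% were then lower and 26.2% higher. In sog1-1 rab8d-2 against WT 8 were higher and 24 lower, beside 24% higher and 23.5% lower over all genes. The share higher was thus below that of all genes, and LHCB2.2, CAB2 and PSAH2 among the 8 had 0 counts in WT.

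Genes outside the set that serve the same processes were mostly lower in rab8d-2 too. Of 12 further photosystem and electron transport genes tested, 9 were lower than in WT and none higher, at a median of -0.92, beside 32.9% lower over all genes, and the ferredoxin gene FD1 fell by 1.54 and FED A by 1.42. Of 10 chlorophyll synthesis genes, 9 were lower and none higher (median -0.89), with HEMA1, which opens the pathway, at -0.67 and CHLM at -0.88. Of 12 Calvin cycle genes, 7 were lower and 2 higher (median -0.36). The root-type ferredoxin system behaved otherwise, with 2 of 3 genes higher and none lower (median 0.10). FD3, its ferredoxin, averaged 332 TPM in rab8d-2, against 296.8 TPM in WT, and the libraries overlapped although the small difference was called (0.10 on the log2 scale, adjusted p = 0.00795). In sog1-1 rab8d-2 against rab8d-2, 4 of the 12 further photosystem genes, 6 of the 10 chlorophyll genes and 8 of the 12 Calvin cycle genes were higher, and 0, 1 and 0 were lower, beside 28.7% higher and 26.0% lower over all genes, so that the share of the photosystem genes was near that of all genes. In atm-2 rab8d-2 the counts were 4, 5 and 3 higher and 1, 3 and 4 lower, beside 31.7% higher and 29.9% lower over all genes, and most of these shares were near those of all genes. HEMA1 fell by 1.32 in atm-2 rab8d-2 and was higher by 0.22 in sog1-1 rab8d-2.

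Regulators of these genes were lower in rab8d-2 as well, 6 of 7 tested with none higher (median -0.86), beside 32.9% lower over all genes. GLK2, a transcription factor that activates photosynthesis genes, averaged 2.49 ± 0.290 TPM in rab8d-2, against 11.95 ± 0.980 TPM in WT (SD, n = 3 each), a log2 fold change of -2.31 ± 0.11. It averaged 13.1 ± 0.681 TPM in atm-2 rab8d-2, 7.53 ± 0.555 TPM in sog1-1 rab8d-2, 4.51 ± 0.305 TPM in nac044-1 rab8d-2 and 8.18 ± 0.685 TPM in nac085-1 rab8d-2, so it was above rab8d-2 in all 4 double mutants (2.41, 1.67, 0.87 and 1.72). The part of GLK2 in the levels of the 48 genes was not tested. GLK1, listed as GPRI1, was not tested and averaged 0.0767 TPM in WT. HY5 and GUN1, other regulators in the list, changed by -0.31 and -0.54 in rab8d-2.

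Morning clock genes were high in atm-2 rab8d-2 and sog1-1 rab8d-2, where the sum of the 48 genes was also above rab8d-2. That sum was slightly above rab8d-2 in nac044-1 rab8d-2 too, and it was below WT in every mutant. All 6 genes of the morning clock list were higher than in rab8d-2 in atm-2 rab8d-2 and in sog1-1 rab8d-2, at medians of 2.92 and 2.39, while 4 of 6 were higher in nac044-1 rab8d-2 (median 0.50) and 3 of 6 in nac085-1 rab8d-2 (median 0.40). Over all genes 31.7%, 28.7%, 24.3% and 31.8% were called higher in the atm-2, sog1-1, nac044-1 and nac085-1 double mutants. Their summed level was 124.3 to 126.7 TPM in atm-2 rab8d-2, 96.0 to 102.4 TPM in sog1-1 rab8d-2, 50.9 to 53.8 TPM in nac044-1 rab8d-2 and 46.9 to 48.3 TPM in nac085-1 rab8d-2, against 40.8 to 42.0 TPM in rab8d-2 and 47.6 to 50.2 TPM in WT. CCA1, a dawn-phased repressor picked here after its values were seen, averaged 9.10 TPM in atm-2 rab8d-2 and 11.2 TPM in sog1-1 rab8d-2, against 0.417 TPM in rab8d-2 and 0.630 TPM in WT. Of 7 evening clock genes, 4 were lower and 2 higher in atm-2 rab8d-2 and 7 were lower in sog1-1 rab8d-2, beside 29.9% and 26.0% lower over all genes. ELF4 fell by 2.11 and 2.21 on the log2 scale. The labels give no hour of harvest, and the part of the clock genes in the higher levels of the 48 genes was not tested.

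Markers of inner root tissues were lower in rab8d-2 than in WT, and their summed levels were above rab8d-2 in all 4 double mutants. All 7 xylem, 4 phloem and 8 endodermis markers were lower in rab8d-2 than in WT, beside 32.9% of all genes. Their medians were -1.03, -1.17 and -0.63. The summed xylem markers were 304.6 to 307.5 TPM in atm-2 rab8d-2, 408.6 to 429.7 TPM in sog1-1 rab8d-2, 392.1 to 399.8 TPM in nac044-1 rab8d-2 and 491.5 to 499.2 TPM in nac085-1 rab8d-2, against 246.0 to 246.8 TPM in rab8d-2 and 420.1 to 436.9 TPM in WT. Phloem markers summed to 47.4 to 49.7 TPM in atm-2 rab8d-2, 59.6 to 63.7 TPM in sog1-1 rab8d-2, 67.9 to 71.0 TPM in nac044-1 rab8d-2 and 84.7 to 85.2 TPM in nac085-1 rab8d-2, against 42.0 to 44.3 TPM in rab8d-2 and 88.9 to 92.1 TPM in WT. Endodermis markers were higher than in rab8d-2 for 6, 8, 3 and 7 of 8 genes in atm-2, sog1-1, nac044-1 and nac085-1 double mutants, beside 31.7%, 28.7%, 24.3% and 31.8% over all genes. None of these markers was at 0 in any library, and their part in the levels of the 48 genes was not tested.

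Plastid-encoded transcripts, which oligo(dT) selection mostly leaves out, gave 259 to 287 counts per library in rab8d-2, against 69 to 85 in WT, over 68 plastid gene identifiers. The double mutants had 204 to 241 counts in atm-2 rab8d-2, 192 to 199 in sog1-1 rab8d-2, 221 to 224 in nac044-1 rab8d-2 and 250 to 266 in nac085-1 rab8d-2. These counts were at most 0.00142% of a library, and they moved in the opposite direction to the nuclear genes between rab8d-2 and WT.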

How the data were processed

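The authors deposited estimated counts, TPM and FPKM per gene for 18 root libraries of 6 genotypes, with RSEM 1.3.1 named in the submitters' processing notes; the aligner, genome build and annotation are not stated there or in the file headers, hence no coordinates or sequences are printed. The deposited TPM values (length-scaled shares of all transcripts) were used for levels and sums, and the deposited FPKM values were not used in tests. The deposited estimated counts were rounded to whole numbers, and decimals occurred where reads were shared between genes.

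Counts were fitted in R 4.3.3 by the quasi-likelihood test of edgeR 4.0.16 (filterByExpr, TMM scaling, 1 mean per genotype over all 18 libraries), which left 19981 of 25537 genes. Benjamini-Hochberg adjustment ran separately over each of 11 comparisons, and an adjusted p under 0.05 was called. The script was tested on simulated data. Symbols came from RefSeq gene records, which matched 25462 identifiers. Alternatives were DESeq2 1.42.0, RLE and upper quartile scaling, no filter, fits of only the 2 groups compared, a replicate block, near-identical copies summed, and leaving out each library.

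The 48 genes and the other lists were chosen with earlier results of these data known. In each role group, the 3 genes with the highest mean TPM and those with the highest and lowest fold change were to be named, with genes called against the majority, and at most the 3 most abundant genes of each other list. The labels call the libraries biological replicates without naming separate cultures, so p-values measure the spread between these samples. This spread was small. For pairs of libraries within genotypes, the ratio of observed variance to counting noise ran from 1.34 to 2.22. The common dispersion of the fit gave a coefficient of variation of 2.38% beyond counting. Small adjusted p-values and large shares of called genes rest on this spread, and whether it covers separately grown cultures is not known.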

Additional observations from a re-analysis of the deposited data

How the results depend on the processing

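Of 429 counts of genes obtained under alternatives, 411 were within 1.5 times the value reported, and of 5629 gene values none changed sign when called, 120 lost a call and 37 gained one. The 35 genes lower in rab8d-2 than in WT stayed at 35 whichever library was left out. Against rab8d-2, the single gene called lower in sog1-1 rab8d-2 became 0 with DESeq2, with copies summed, with no filter, with only the 2 groups and with the replicate block, and ranged from 0 to 1 when a library was left out. The 5 genes lower in nac044-1 rab8d-2 than in rab8d-2 became 3 with DESeq2 and ranged from 2 to 5 without a library. The gene higher in atm-2 rab8d-2 than in WT became 0 with copies summed and ranged from 1 to 2 without a library. Genes higher in sog1-1 rab8d-2 than in WT became 8 with no filter, and genes higher in nac085-1 rab8d-2 than in nac044-1 rab8d-2 became 1 with only the 2 groups. With copies summed and with no filter, other genes were tested; otherwise the cause was not tested.

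Libraries with the same replicate number did not deviate together (correlations -0.153 to 0.0901), so the numbers were not taken to pair them. At best 3 of 6 libraries in a comparison correlated most with their own number. The replicate block changed 2 of 440 gene calls, LHCB2.3 in sog1-1 rab8d-2 against rab8d-2 (-0.67, adjusted p = 0.0503) and LHCB4.3 in sog1-1 rab8d-2 against atm-2 rab8d-2 (adjusted p = 0.0536). Genes with few counts limit what could be called, and 8 of 48 were too low to test.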
